A study of Mus musculus with 6 samples.

Results

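The kinetochore and spindle checkpoint genes examined here are 40 genes chosen by name, of 49315 genes in the deposited count table. They cover the centromere histone and its partners, the inner kinetochore network, the KMN network, the corona with its motor, the spindle checkpoint, the chromosomal passenger complex and the shugoshins. Of the 40, 39 were found by gene name and 1, Sgo2a, by gene ID, since the table lists it under the older name Sgol2a. All 40 passed the filter on low counts, by which 16060 genes were tested.

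RNA was sequenced from fully grown germinal vesicle (GV) oocytes, which are arrested in meiotic prophase with an intact nucleus. The OcKO group was 3 mice with an oocyte-specific conditional knockout of Rpa1, a subunit of the complex that binds single-stranded DNA, and the Control group was 3 mice without it. Each library held about 20 oocytes of 1 mouse aged 4 to 5 weeks. All mice had been primed with PMSG, a gonadotropin that drives follicle growth, and the oocytes had been freed of cumulus cells. The sources used here give neither the Cre driver nor the genotype of the Control mice. Since oocytes were pooled, a change in RNA per oocyte and a change in the share of oocytes that carry the transcript cannot be told apart.

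The kinetochore is the protein assembly that joins a chromosome's centromere to spindle microtubules. Nucleosomes with the histone variant CENP-A mark the centromere, the inner network of CENP proteins builds on them, and the KMN network on top of it holds the microtubule. Kinetochores without a microtubule load checkpoint proteins that restrain the anaphase-promoting complex, the passenger complex loosens faulty attachments, and shugoshins shield the cohesin that holds sister centromeres together. GV oocytes do not yet have a spindle, and they store transcripts that are used during the meiotic divisions.

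Total counts were 36280148 to 44575222 per library in OcKO and 36612443 to 41402926 in Control. Rpa1 was at 7.76, 4.14 and 6.84 CPM (counts scaled to the TMM library size) in OcKO replicates 1 to 3, against 156, 155 and 140.0 CPM in Control replicates 1 to 3, which matches the labels (log2 fold change -4.59, SE 0.31, adjusted p = 0.0064 by edgeR). The 10 oocyte markers, among them Gdf9 and Zp3, summed to 25047 to 30102 CPM in OcKO and 29661 to 48600 CPM in Control (log2 difference -0.45, exact two-sided permutation p = 0.2). Of these, Gdf9, Bmp15 and Ooep were lower in every OcKO library, while the groups overlapped for Zp1, Zp2, Zp3, Nlrp5, Dppa3, Figla and Oosp1. The 10 markers of granulosa and cumulus cells, which divide, summed to 87.6 to 99.3 CPM in OcKO and 63.9 to 101 CPM in Control. Most of that was Cyp19a1 (8.27 to 35.0 CPM over the 6 libraries), Inha (9.75 to 39.8 CPM) and Nr5a2 (12.5 to 39.0 CPM), while Foxl2 was at or near 0 in all 6 libraries. Markers of theca and stroma summed to 2.93 to 4.53 CPM in OcKO and 0.264 to 2.51 CPM in Control. Those of blood and vessel summed to 86.3 to 124 CPM in OcKO and 85.8 to 129 CPM in Control, most of it Pecam1. The rest of that list was low: in any library Cdh5, the other vessel marker, was at most 0.0246 CPM. Hba-a1 was at most 0.346 CPM, Hbb-bs 0.375 CPM, Ptprc 2.08 CPM and Cd68 9.62 CPM. In log2 terms the sums differed by 0.30 for granulosa and cumulus cells, 1.02 for theca and stroma and -0.03 for blood and vessel. The exact two-sided permutation p was 0.4, 0.1 and 0.8 in that order, where 0.1 is the smallest possible. The 3 lists of other cell types together, with Pecam1 a large part of their sum, differed by 0.13 (p = 0.6 by the same permutation test). The theca and stroma sum was higher in every OcKO library, at low levels, and the part of these markers in the differences described here was not tested.

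No kinetochore or checkpoint gene differed between OcKO and Control oocytes at an adjusted p under 0.05 by edgeR's quasi-likelihood test. The smallest adjusted p among the 40 was 0.164, for Cenpi. Over the whole table the same test called 23 of 16060 genes (0.143%), of which 22 were higher (0.137%) and 1 lower (0.00623%) in OcKO. DESeq2, which called 4.7% of the table, called 1 of the 40, Cenpi. At an unadjusted edgeR p under 0.05 stood 5 of the 40 genes (12.5%), against 11.1% of all tested genes, so the share was near that of the table. Cenpi, Cenpt and Spc25 were higher in OcKO, where 5.93% of tested genes were, and Cenpf and Bub1b were lower, where 5.21% were.

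Most of the 40 transcripts had similar levels in both groups. The log2 fold changes ran from -0.68 for Cenpf to 1.67 for Cenpi, and 33 of the 40 stayed within 1.5-fold either way, against 57.7% of all tested genes. Only Cenpi, Cenpt and Spc25 were over 2-fold higher by point estimate and 0 were over 2-fold lower, while 23.1% of all tested genes were over 2-fold in either direction. These shares of tested genes were not matched for level, so they are no like-for-like background. The median level in Control was 30.9 CPM per kb of exonic length for the 40, against 3.30 for all tested genes. The fold change was positive for 22 and negative for 18, with a median of 0.02, against a median of 0.01 and 50.8% positive over all tested genes. Scaling by library size alone gave 27 positive and 13 negative members and a median of 0.19, and moved the median of all tested genes to 0.18.

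The kinetochore transcripts were abundant compared with the table. Per kb of exonic length, the median level of the 40 was 34.8 CPM per kb in OcKO and 30.9 in Control, against 3.43 and 3.30 CPM per kb for all tested genes. Bub1b had the highest level of the 40, at 344 ± 80.6 CPM per kb in OcKO and 508 ± 79.1 in Control (SD, n = 3 each), and its Control level exceeded that of 99.5% of tested genes. Birc5, Cenpn and Aurkc came next in OcKO, and Birc5, Aurkc and Cenpn in Control. Nsl1 and Cenpb were the least abundant, both under 1 CPM per kb.

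**Figure D1:**
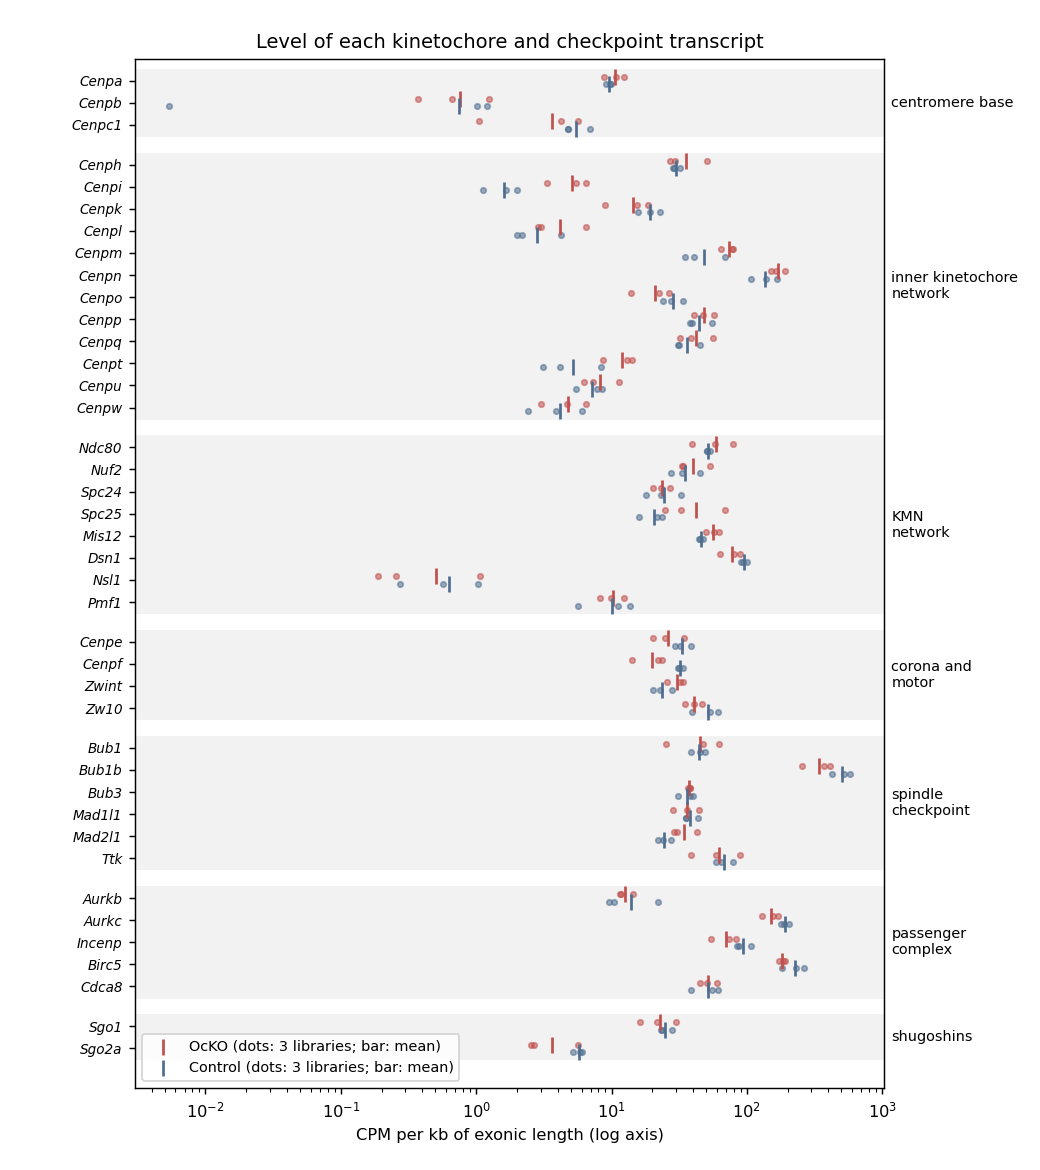
Level of each of the 40 transcripts in CPM per kb of exonic length (log axis), grouped by role. Dots are the 3 OcKO (red) and 3 Control (blue) libraries and bars are group means. Bub1b lies highest, at 344 CPM per kb in OcKO and 508 in Control, and Nsl1 and Cenpb lie below 1 in both.

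Promoter sequences are shown for the 5 genes at an unadjusted p under 0.05, because cell cycle genes are often controlled through short promoter elements that kinetochore genes share. The searched elements were the cell cycle homology region (CHR; TTTGAA or TTCGAA) and the CCAAT box (CCAAT), on both strands, in RefSeq windows of 250 bases before to 50 bases after the gene's start (GRCm38.p6). Each sequence is 300 bases, 5′ to 3′ on the gene's strand, and capitals mark the CHR and CCAAT matches.
Cenpi, chrX:134307834-134308133, plus strand: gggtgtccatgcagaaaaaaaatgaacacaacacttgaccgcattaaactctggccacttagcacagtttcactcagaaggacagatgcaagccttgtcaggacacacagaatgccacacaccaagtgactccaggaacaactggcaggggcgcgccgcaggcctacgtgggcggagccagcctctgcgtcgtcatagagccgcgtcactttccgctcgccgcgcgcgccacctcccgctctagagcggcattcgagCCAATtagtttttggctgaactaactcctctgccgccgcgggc
Cenpt, chr8:105851959-105852258, minus strand: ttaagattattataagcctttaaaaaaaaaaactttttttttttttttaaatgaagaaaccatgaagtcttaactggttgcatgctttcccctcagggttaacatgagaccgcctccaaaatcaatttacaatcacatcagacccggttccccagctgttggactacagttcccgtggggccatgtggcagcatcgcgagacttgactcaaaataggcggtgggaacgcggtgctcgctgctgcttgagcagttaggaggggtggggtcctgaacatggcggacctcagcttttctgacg
Spc25, chr2:69206164-69206463, minus strand: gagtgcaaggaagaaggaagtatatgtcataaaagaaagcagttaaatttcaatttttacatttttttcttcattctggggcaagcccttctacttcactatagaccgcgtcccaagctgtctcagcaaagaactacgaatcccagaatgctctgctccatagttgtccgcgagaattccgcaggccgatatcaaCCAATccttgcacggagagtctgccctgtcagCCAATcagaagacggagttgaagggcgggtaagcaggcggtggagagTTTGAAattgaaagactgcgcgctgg
Cenpf, chr1:189688037-189688336, minus strand: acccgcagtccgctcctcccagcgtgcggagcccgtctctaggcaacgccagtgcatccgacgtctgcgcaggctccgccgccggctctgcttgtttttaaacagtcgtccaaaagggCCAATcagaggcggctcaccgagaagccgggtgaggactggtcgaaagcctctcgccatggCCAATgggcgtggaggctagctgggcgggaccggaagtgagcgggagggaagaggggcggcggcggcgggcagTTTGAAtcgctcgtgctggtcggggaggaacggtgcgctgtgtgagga
Bub1b, chr2:118597961-118598260, plus strand: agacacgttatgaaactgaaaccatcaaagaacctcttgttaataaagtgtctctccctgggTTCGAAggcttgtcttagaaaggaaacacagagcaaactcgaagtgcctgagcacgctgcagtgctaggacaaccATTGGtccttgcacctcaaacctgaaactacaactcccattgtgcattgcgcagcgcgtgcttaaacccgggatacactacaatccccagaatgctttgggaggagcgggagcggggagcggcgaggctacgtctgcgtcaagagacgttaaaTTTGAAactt
The Spc25 and Cenpf windows each held 2 CCAAT boxes and 1 CHR, the Bub1b window held 1 CCAAT box and 2 CHR matches, the Cenpi window held 1 CCAAT box, and the Cenpt window held neither. The RefSeq start of Cenpt lies 1270 bases inside the gene as the deposited table gives it, so its window is not at that table's start, while those of Cenpi, Cenpf and Bub1b are. The printed matches share no base with each other.

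Among the 36 of the 40 genes with a RefSeq window, 16 (44.4%) held a CHR and 25 (69.4%) a CCAAT box. Over all 27025 genes with a window the shares were 21.7% and 41.1%. An E2F site (TTTCCCGC, TTTCGCGC, TTTGCCGC or TTTGGCGC, both strands) was in 4 windows (11.1%), against 2.60% of all genes. Members with a CHR had a median log2 fold change of 0.04 and those without one 0.09. These shares and medians are descriptions with no test, and a match in the letters is not evidence of binding.

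The base of the kinetochore is represented by Cenpa, Cenpb and Cenpc1. Cenpa, which encodes the centromere histone, had 63.2, 51.7 and 72.8 CPM in OcKO, against 56.7, 53.5 and 58.4 CPM in Control, and the groups overlapped (log2 fold change 0.15, SE 0.22, adjusted p = 0.877 by edgeR). Cenpa was also the most abundant of the 3 per length, at 10.7 ± 1.80 CPM per kb in OcKO and 9.59 ± 0.42 in Control. Cenpc1, whose product bridges CENP-A nucleosomes and the KMN network, was singled out after its values were seen. It had 23.9, 31.8 and 5.96 CPM in OcKO, against 26.7, 27.0 and 39.0 CPM in Control. The low level was that of OcKO replicate 3, and the other OcKO libraries lay within or near the Control range (log2 fold change -0.59, SE 0.57, adjusted p = 0.796 by edgeR). Cenpb, whose product binds a motif in centromeric satellite DNA, had a single count in Control replicate 2 and 83 to 246 counts in the other libraries, so its fold change carried the highest SE of the 40, at 1.40.

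In the inner kinetochore network 10 of 12 genes had a positive log2 fold change, with a median of 0.25, and 0 passed the adjusted test. The positive count was 8 without OcKO replicate 1 (median 0.31), 8 without OcKO replicate 2 (median 0.15) and 9 without Control replicate 1 (median 0.15). Cenpi, a subunit of the CENP-H/I/K/M module, lies on chromosome X at 134308084 to 134362639 (GRCm38, plus strand). It had 30.9, 36.5 and 19.1 CPM in OcKO, against 11.4, 6.35 and 9.42 CPM in Control. All OcKO libraries were above all Control libraries, by 3.18-fold on the means. The log2 fold change of 1.67 (SE 0.41) had an unadjusted p of 0.00435 and an adjusted p of 0.164 by edgeR, while DESeq2 called it at an adjusted p of 0.00425. Leaving out each library in turn gave log2 fold changes of 1.49 to 1.89, with adjusted p of 0.229 to 0.370 by edgeR.

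Cenpt, whose product reaches outward to bind the Ndc80 complex, lies on chromosome 8 at 105844673 to 105853278 (minus strand). It had 47.7, 31.4 and 51.8 CPM in OcKO, against 11.4, 15.3 and 30.6 CPM in Control. The groups were barely apart, since OcKO replicate 2 and Control replicate 3 nearly met. The log2 fold change was 1.19 (SE 0.43, unadjusted p = 0.0266, adjusted p = 0.351 by edgeR and 0.105 by DESeq2). Cenpn, which encodes a reader of CENP-A nucleosomes, was the most abundant transcript of the network at 169 ± 21.3 CPM per kb in OcKO and 137 ± 29.2 in Control. Its libraries had 540.4, 634 and 496 CPM in OcKO, against 355, 453 and 547 CPM in Control. Control replicate 3 fell within the OcKO range (log2 fold change 0.30, SE 0.21, adjusted p = 0.689 by edgeR).

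None of the other members of the inner network passed the test, and the groups overlapped for each of them. Cenpm, of the same module as Cenpi, averaged 88.5 ± 9.39 CPM in OcKO and 58.0 ± 21.9 CPM in Control (log2 fold change 0.61, adjusted p = 0.514 by edgeR), and Control replicate 1 lay within the OcKO range. Cenpk and Cenph, the remaining members of that module, had log2 fold changes of -0.43 and 0.26. Of the 4 genes of this module, Cenpi alone had groups that did not overlap. Cenpw, the binding partner of Cenpt, had a log2 fold change of 0.20 with an SE of 0.47. Cenpl, which pairs with Cenpn, had 0.56 with an SE of 0.49. Cenpo, Cenpp, Cenpq and Cenpu, which form a further module, ran from -0.44 for Cenpo to 0.24 for Cenpq. Of the exonic length of Cenpu, 26.7% overlaps Primpol on the opposite strand, and 19.0% of that of Cenpo overlaps Adcy3. The library kit does not mark strand, so reads of such pairs cannot be told apart.

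**Figure D2:**
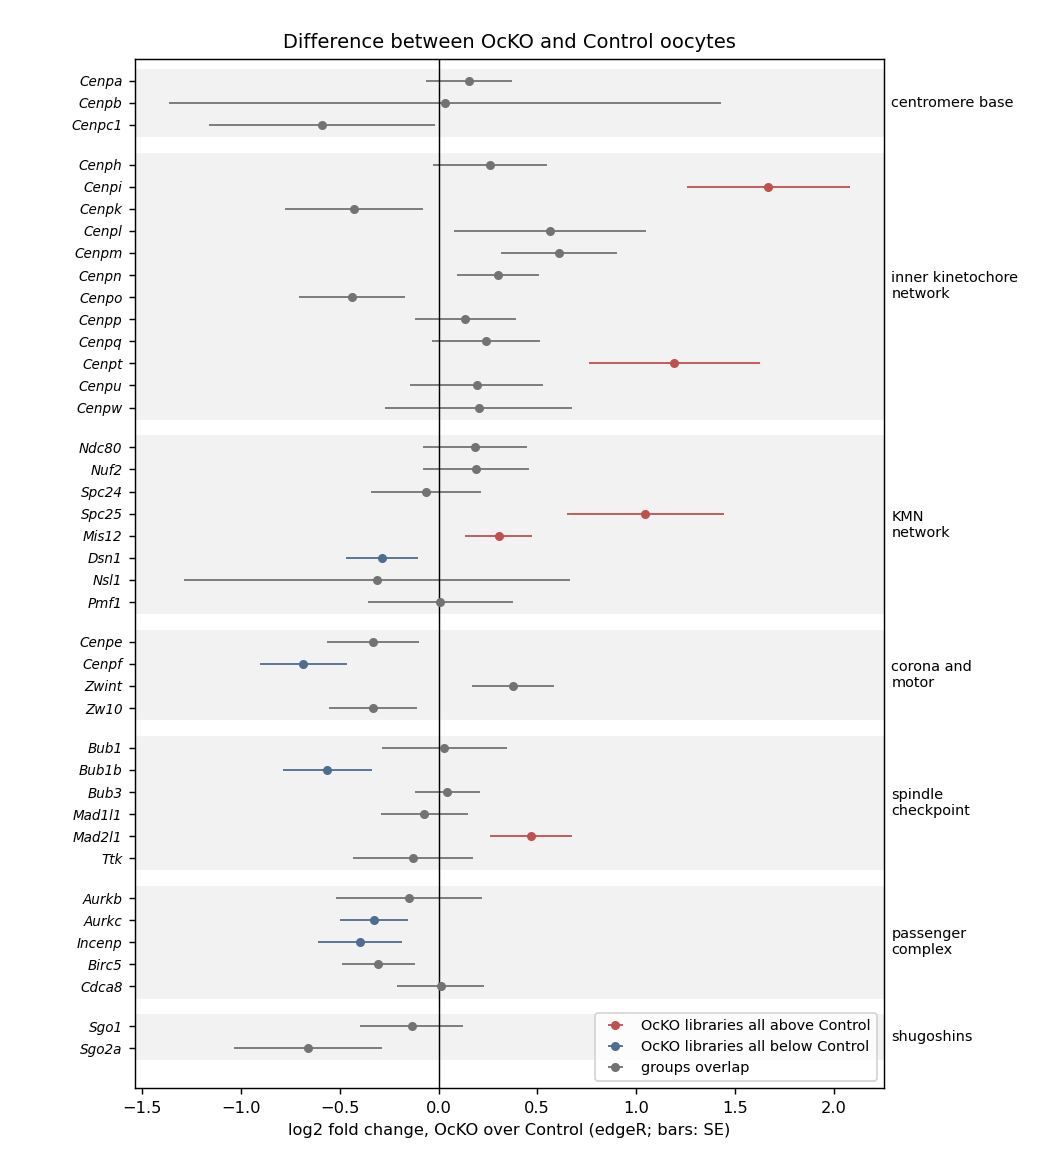
Log2 fold change of each of the 40 genes, OcKO over Control, from edgeR, with bars of 1 SE and genes grouped by role. Red marks the 5 genes whose OcKO libraries were all above Control, blue the 5 whose OcKO libraries were all below, and grey the genes whose groups overlapped. Cenpi lies farthest to the right at 1.67 and Cenpf farthest to the left at -0.68.

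The KMN network split in both directions. Of its 8 genes, 5 had a positive and 3 a negative log2 fold change, with a median of 0.10 and 0 called. Spc25, a subunit of the Ndc80 complex that grips microtubules, lies on chromosome 2 at 69193895 to 69206194 (minus strand). It had 79.4, 221 and 103 CPM in OcKO, against 50.5, 69.6 and 75.5 CPM in Control. The groups did not overlap, although OcKO replicate 1 was close to Control replicate 3 and OcKO replicate 2 stood far above every other library. The log2 fold change of 1.05 (SE 0.40, unadjusted p = 0.0314, adjusted p = 0.374 by edgeR) was 0.52 without OcKO replicate 2. DESeq2 gave an adjusted p of 0.0966.

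The partners of Spc25 in the Ndc80 complex were nearly level between the groups. Ndc80 averaged 129 ± 43.0 CPM in OcKO and 114 ± 2.43 CPM in Control, with log2 fold changes of 0.18 for Ndc80, 0.19 for Nuf2 and -0.06 for Spc24. Per length, the 4 subunits were at 58.8 (Ndc80), 40.1 (Nuf2), 23.5 (Spc24) and 42.3 (Spc25) CPM per kb in OcKO, against 51.7, 35.2, 24.6 and 20.4 CPM per kb in Control, in the same order of genes.

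The Mis12 complex joins the inner kinetochore to the rest of the KMN network, and 2 of its members were apart in opposite directions. Mis12, on chromosome 11 at 71019611 to 71027371 (plus strand), had 171, 188 and 149 CPM in OcKO, against 133, 143 and 136 CPM in Control. Every OcKO library was higher, the log2 fold change was 0.30 (SE 0.17), and the adjusted p was 0.594 by edgeR. Mis12 lies 4.3 Mb from Rpa1 on the same chromosome. Of its exonic length, 7.69% overlaps Derl2 on the opposite strand. Derl2 had 4023, 3281 and 1953 counts in OcKO, against 1417, 1653 and 2209 counts in Control. The part of this overlap in the Mis12 values was not tested. Dsn1, on chromosome 2 at 156995265 to 157007154 (minus strand), had 271, 299 and 211 CPM in OcKO, against 304, 313 and 337 CPM in Control. Every OcKO library was lower, with OcKO replicate 2 just under Control replicate 1 (log2 fold change -0.29, SE 0.18, adjusted p = 0.653 by edgeR). Dsn1 was the most abundant KMN transcript per length, at 77.7 ± 13.4 CPM per kb in OcKO and 94.8 ± 4.94 in Control. Pmf1 had a log2 fold change of 0.01. Nsl1 was scarce, at 0.503 CPM per kb in OcKO and 0.625 in Control, and its log2 fold change of -0.31 had an SE of 0.98.

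In the corona, the outer fibrous layer that captures microtubules, and the motor, 3 of 4 genes had a negative log2 fold change, with a median of -0.33 and 0 called. Cenpf, which encodes a very large coiled-coil protein of the corona, lies on chromosome 1 at 189640606 to 189688086 (minus strand). It had 341, 366 and 219 CPM in OcKO, against 479.7, 519 and 489 CPM in Control. The 3 Control libraries lay close together and every OcKO library was below them, OcKO replicate 3 most. The log2 fold change was -0.68 (SE 0.22, unadjusted p = 0.0158, adjusted p = 0.285 by edgeR and 0.0669 by DESeq2), and -0.49 without OcKO replicate 3. Per length, Cenpf was at 20.0 ± 5.12 CPM per kb in OcKO and 32.1 ± 1.32 in Control.

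Zw10, which encodes part of the complex that brings dynein and checkpoint proteins to kinetochores, was the most abundant of this group at 40.7 ± 6.07 CPM per kb in OcKO and 51.3 ± 11.1 in Control. It had 179, 155 and 133 CPM in OcKO, against 149.9, 205 and 234 CPM in Control, and the groups overlapped (log2 fold change -0.33, SE 0.22, adjusted p = 0.677 by edgeR). Cenpe, the kinesin that carries chromosomes toward the spindle equator, averaged 227 ± 60.9 CPM in OcKO and 286 ± 40 CPM in Control, with a log2 fold change of -0.33. Zwint, whose product helps recruit the Zw10 complex, had the opposite sign, with a log2 fold change of 0.38 (SE 0.21).

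The spindle checkpoint genes gave 3 positive and 3 negative log2 fold changes, a median of -0.02 and 0 calls. The sign of that median turned with scaling by library size alone, which gave 0.14. Bub1b, which encodes the BubR1 subunit of the mitotic checkpoint complex, lies on chromosome 2 at 118598211 to 118641591 (plus strand). It had 1579, 1747 and 1084 CPM in OcKO, against 2469, 1804 and 2239 CPM in Control. OcKO replicate 2 and Control replicate 2 nearly met, and OcKO replicate 3 was the lowest. The log2 fold change was -0.56 (SE 0.23, unadjusted p = 0.0395, adjusted p = 0.411 by edgeR and 0.184 by DESeq2), and -0.39 without OcKO replicate 3.

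Mad2l1, which encodes MAD2, the subunit that binds and holds CDC20, lies on chromosome 6 at 66535390 to 66547220 (plus strand). It had 254, 359 and 244 CPM in OcKO, against 202, 186 and 232 CPM in Control. Every OcKO library was higher, with OcKO replicate 3 just above Control replicate 3 (log2 fold change 0.47, SE 0.21, unadjusted p = 0.058, adjusted p = 0.472 by edgeR). Per length, Mad2l1 was the least abundant checkpoint transcript, at 34.0 ± 7.64 CPM per kb in OcKO and 24.6 ± 2.81 in Control. Bub1b therefore ranked highest and Mad2l1 lowest of the 6 per length in both groups. The 2 genes differed between the groups in opposite directions. The low rank of Mad2l1 depends on its exonic length, 8390 bases, the longest of the 6. By CPM without length Mad1l1 was the lowest, at 132 CPM in OcKO and 139 CPM in Control, against 285 and 207 CPM for Mad2l1.

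The remaining checkpoint genes were close to level. Bub3, whose product carries BUB1 and BubR1 to the kinetochore, averaged 263 ± 3.46 CPM in OcKO and 255 ± 31.9 CPM in Control, a log2 fold change of 0.04 with the smallest SE of the 40, 0.16. Mad1l1, the kinetochore anchor of MAD2, had a log2 fold change of -0.07. Bub1 and Ttk, the checkpoint kinases, spread widely within OcKO. Bub1 averaged 196 ± 81.0 CPM in OcKO and 192 ± 23.8 CPM in Control. Ttk averaged 304 ± 124 CPM in OcKO and 333 ± 49.5 CPM in Control. For both genes OcKO held the highest library, replicate 2, and the lowest, replicate 3.

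In the passenger complex 4 of 5 genes had a negative log2 fold change, with a median of -0.30 and 0 called. Scaling by library size alone gave 3 of 5 negative and a median of -0.13. Aurkc, the germline Aurora kinase that is the main kinase of the complex in mouse oocytes, lies on chromosome 7 at 6995300 to 7003091 (plus strand). It had 199, 259 and 237 CPM in OcKO, against 269.9, 289 and 312 CPM in Control. Every OcKO library was lower, with OcKO replicate 2 close to Control replicate 1 (log2 fold change -0.33, SE 0.17, adjusted p = 0.566 by edgeR). Its counts are uncertain, because 54.8% of its 50-base stretches also occur in other annotated genes, mostly Gm12463 and Gm6909. Those genes averaged 6.75 and 1.83 CPM in OcKO, against 7.83 and 1.70 CPM in Control.

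Aurkb, the somatic Aurora kinase of the complex, had 34.8, 34.2 and 42.2 CPM in OcKO, against 30.7, 28.1 and 64.6 CPM in Control. The groups overlapped, and Control replicate 3 was the highest library. The log2 fold change of -0.15 (SE 0.37, adjusted p = 0.938 by edgeR) turned to 0.36 without Control replicate 3 and to 0.02 with scaling by library size alone. Aurkb lies on chromosome 11, 6.3 Mb from Rpa1. Per length, the ratio of Aurkc to Aurkb was 11.0, 14.7 and 10.8 in OcKO, against 17.0, 19.9 and 9.33 in Control, so Aurkc exceeded Aurkb in every library. The mean ratio was 12.2 ± 2.16 in OcKO and 15.4 ± 5.46 in Control (SD, n = 3 each; log2 difference -0.28, exact two-sided permutation p = 0.6).

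Incenp, the scaffold of the complex that binds and activates the Aurora kinase, lies on chromosome 19 at 9872297 to 9899533 (minus strand). It had 269, 175 and 236 CPM in OcKO, against 347, 272 and 279 CPM in Control. Every OcKO library was lower, but OcKO replicate 1 was only just under Control replicate 2 (log2 fold change -0.40, SE 0.21, adjusted p = 0.571 by edgeR). Birc5, which encodes survivin, the subunit that reads a centromeric histone phosphorylation, was the most abundant at 183 ± 10.6 CPM per kb in OcKO and 226 ± 42.0 in Control. It had 628, 654 and 583 CPM in OcKO, against 616, 900.0 and 786 CPM in Control, and the groups overlapped (log2 fold change -0.30, SE 0.18, adjusted p = 0.633 by edgeR). Cdca8, which encodes borealin, was level at 269 ± 37.6 CPM in OcKO and 267 ± 61.4 CPM in Control.

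Both shugoshin genes among the 40 had negative log2 fold changes, and neither passed the test. Sgo1 had 82.7, 115 and 61.5 CPM in OcKO, against 89.8, 87.8 and 107 CPM in Control. Here OcKO held both the highest and the lowest library, and the log2 fold change of -0.14 (SE 0.26, adjusted p = 0.914 by edgeR) turned to 0.06 without OcKO replicate 3 and to 0.02 with scaling by library size alone. Sgo2a, whose product protects centromeric cohesin in the first meiotic division of mouse oocytes, had 17.7, 39.6 and 18.6 CPM in OcKO, against 42.7, 36.4 and 41.0 CPM in Control. OcKO replicates 1 and 3 were low and OcKO replicate 2 lay within the Control range (log2 fold change -0.66, SE 0.38, adjusted p = 0.601 by edgeR). Of the exonic length of Sgo2a, 35.0% overlaps Kctd18 on the opposite strand, which averaged 12.6 CPM in OcKO and 18.0 CPM in Control.

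Sgo1 was the more abundant shugoshin transcript in every library. Per length, the ratio of Sgo2a to Sgo1 was 0.116, 0.188 and 0.165 in OcKO, against 0.258, 0.225 and 0.209 in Control. The ratio was lower in every OcKO library, at 0.156 ± 0.0367 in OcKO and 0.231 ± 0.0250 in Control (SD, n = 3 each; log2 difference -0.59). The exact two-sided permutation p was 0.1, the smallest that 3 libraries against 3 allow, so this design cannot reach 0.05. Leaving out each library in turn kept the difference between -0.73 and -0.39. The Sgo2a counts include the exonic stretch that overlaps Kctd18, and the part of that overlap in the ratio was not tested.

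In all, 10 of the 40 genes had OcKO and Control libraries that did not overlap (25.0%), against 19.4% of all tested genes. Cenpi, Cenpt, Spc25, Mis12 and Mad2l1 were above Control in every OcKO library, and Cenpf, Bub1b, Dsn1, Aurkc and Incenp were below. Among tested genes 10.7% were above and 8.67% below. Scaling by library size alone gave 7 above and 1 below, against 14.5% and 5.26% of tested genes. DESeq2-type size factors gave 5 and 4, against 11.1% and 8.18% of tested genes. The genes above belong to the inner network, the KMN network and the checkpoint, and those below to the KMN network, the corona, the checkpoint and the passenger complex. With fewer libraries groups overlap less by construction: the count was 16 without Control replicate 1, where 28.7% of tested genes did not overlap, and 20 without OcKO replicate 2, where 32.6% did not.

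**Figure D3:**
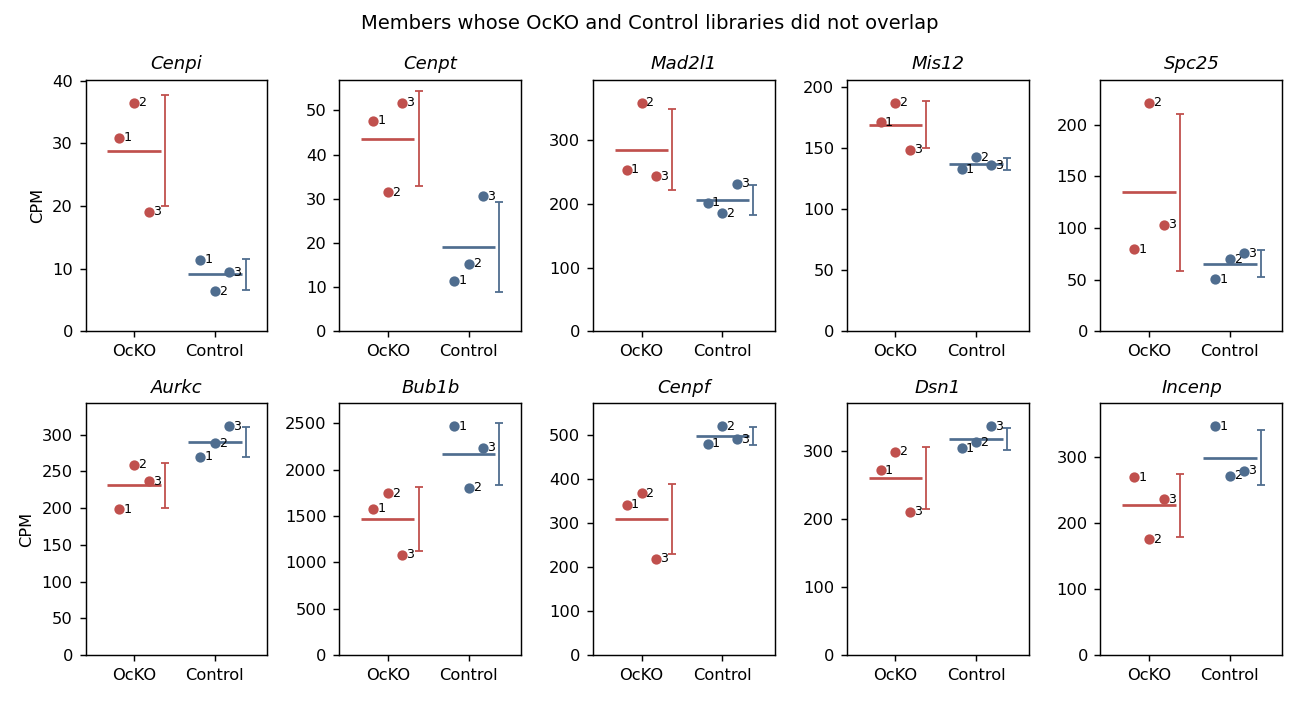
CPM of the 10 genes whose OcKO and Control libraries did not overlap, with OcKO left of Control in each panel. Points are libraries with their replicate number, horizontal lines are means and bars are ± 1 SD (n = 3). The top row holds the 5 genes above Control and the bottom row the 5 below. The gap is wide for Cenpi and Cenpf and narrow for Cenpt, Spc25, Mis12, Mad2l1, Bub1b, Dsn1, Aurkc and Incenp.

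Single libraries held many of the extreme values of these genes. OcKO replicate 3 was the lowest of the 6 libraries for 13 of the 40 genes (32.5%), against 17.8% of all tested genes. These 13 were Cenpc1, Cenpk, Cenpo, Ndc80, Dsn1, Cenpe, Cenpf, Zw10, Bub1, Bub1b, Ttk, Birc5 and Sgo1. OcKO replicate 2 was the highest for 14 (35.0%), against 15.6% of all tested genes. Both extremes lay in OcKO for 8 genes. The share of all tested genes with both extremes in OcKO was not computed, so nothing is read from this count. For Ndc80, Bub1, Ttk and Sgo1 the extremes were the same pair of libraries, replicate 3 lowest and replicate 2 highest. Control replicate 1 was the lowest library for 11 (27.5%), against 18.9% of tested genes, among them Cenpt, Spc25 and Mis12. Control replicate 3 was the lowest library for 0 of the 40, against 11.0% of tested genes. The coefficient of variation was larger in OcKO than in Control for 26 of the 40, against 46.9% of tested genes, with medians of 25.1% in OcKO and 18.7% in Control.

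Transcript length and scaling differed along with these libraries. OcKO replicate 3 had the highest TMM factor, 1.12, against 1.04 and 1.02 in the other OcKO libraries and 0.917 to 0.963 in Control. The members lowest in OcKO replicate 3 had a median exonic length of 4275 bases and the other members 3999 bases. Tested genes lowest in that library had 4071.5 bases, against 3281.5 for the others. The part of length or scaling in these values was not tested.

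**Figure D4:**
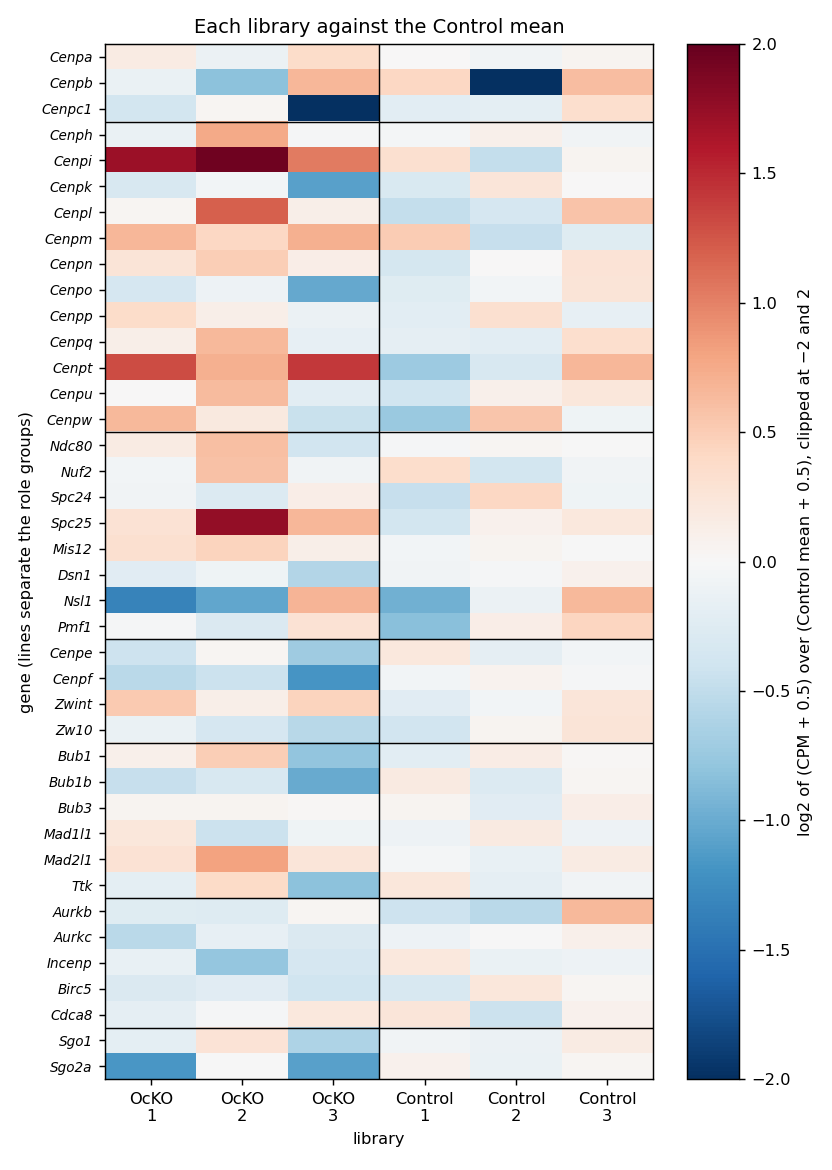
Each of the 40 genes (rows, grouped by role) in each library (columns, OcKO left of Control), as log2 of CPM plus 0.5 over the Control mean plus 0.5, clipped at -2 and 2. Red is above and blue below the Control mean. Cenpi and Cenpt are red in all 3 OcKO libraries, and OcKO replicate 3 is the lowest library for 13 genes.

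A further 59 genes of the pathway, which share no member with the 40, gave 0 calls among the 58 tested by edgeR. The 24 other kinetochore and checkpoint genes had 15 positive and 9 negative log2 fold changes and a median of 0.05, with 2 higher and 1 lower at an unadjusted p under 0.05, where 5.93% and 5.21% of all tested genes were. Trip13, the ATPase that takes apart the mitotic checkpoint complex by reopening MAD2, had 56.2, 44.3 and 34.4 CPM in OcKO, against 6.23, 15.1 and 13.7 CPM in Control. Its libraries did not overlap (log2 fold change 1.94, SE 0.42, adjusted p = 0.122 by edgeR and 0.000572 by DESeq2). Mad2l1bp, the adaptor that brings MAD2 to that ATPase, had 51.7, 56.2 and 93.3 CPM in OcKO, against 29.3, 31.6 and 34.3 CPM in Control. All OcKO libraries were higher here too (log2 fold change 1.08, SE 0.29, adjusted p = 0.201 by edgeR and 0.0199 by DESeq2). The 1 lower gene was Plk1, a mitotic kinase that acts at kinetochores, named after its values were seen. It had 380.2, 316 and 353 CPM in OcKO, against 518, 502 and 533 CPM in Control, without overlap (log2 fold change -0.56, SE 0.15, adjusted p = 0.203 by edgeR and 0.0259 by DESeq2).

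The list for the anaphase-promoting complex, the ubiquitin ligase that the checkpoint restrains, held subunits, the regulators Fzr1 and Fbxo5, and the enzymes Ube2c and Ube2s. Of its 18 genes 13 had a negative log2 fold change, Fzr1, Fbxo5 and Ube2s among them, and the median was -0.20. By edgeR 3 were at an unadjusted p under 0.05, all lower in OcKO, as were 5.21% of all tested genes. Scaling by library size alone gave 10 of 18 and a median of -0.04. Ube2s, the enzyme that extends ubiquitin chains on substrates of the complex, had 118, 90.7 and 139.8 CPM in OcKO, against 249.9, 325 and 189.7 CPM in Control. The groups were well apart (log2 fold change -1.13, SE 0.26, adjusted p = 0.136 by edgeR and 0.00404 by DESeq2). Cdc16, a core subunit, had 24.6, 34.9 and 36.5 CPM in OcKO, against 58.3, 48.0 and 58.0 CPM in Control, also without overlap (log2 fold change -0.77, SE 0.26, adjusted p = 0.303 by edgeR).

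Of the kinetochore phosphatases 11 of 12 genes were tested, with 6 positive and 5 negative log2 fold changes and a median of 0.12. Ppp2r5d, a regulatory subunit of the phosphatase PP2A, had 111, 57.8 and 95.4 CPM in OcKO, against 154, 133 and 134 CPM in Control, without overlap (log2 fold change -0.67, SE 0.26, adjusted p = 0.396 by edgeR). Ppp1cc, a catalytic subunit of PP1, had a log2 fold change of -1.11 with an SE of 0.70. The last list held 5 genes, those of separase, securin and the B-type cyclins. Among them Ccnb3, the cyclin that mouse oocytes need for the first anaphase, had 18.0, 17.2 and 17.3 CPM in OcKO, against 31.9, 23.3 and 41.0 CPM in Control. Its OcKO libraries were nearly identical and all lower (log2 fold change -0.87, SE 0.31, adjusted p = 0.344 by edgeR). Pttg1, which encodes securin, had a log2 fold change of -0.56 with an SE of 0.30, and its groups overlapped.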

How the data were processed

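The authors deposited whole-number counts of reads per gene, not normalized. Reads were trimmed with Trimmomatic 0.36 (per the submitters' processing notes, as are the next steps), mapped with STAR 2.5.2b (build GRCm38) and summarised per gene by featureCounts (Subread 1.5.2). The annotation version, strandedness option and handling of multi-mapped reads were not given in the sources used here. Per the labels' protocols, the low-input library kit used does not keep strand information. A single count equals 0.0224 to 0.0276 CPM, depending on the library.

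Libraries were compared over the whole table by the quasi-likelihood test of edgeR 4.0.16 (R 4.3.3; TMM scaling, filterByExpr), with a Benjamini-Hochberg adjusted p under 0.05 as a call. The SE was obtained by dividing the size of the log2 fold change by the root of F. CPM per kb uses the exonic length in the deposited table. Scripts were tested on simulated data. DESeq2 1.42.0, voom of limma 3.58.1, other scalings and filters, the replicate block and leaving out each library were alternatives. The members, gene lists and tests were chosen with earlier results of these data known. Values per library are given for members at an unadjusted p under 0.05, those without overlap, the most abundant of each role, the Aurora kinases and the shugoshins. For each further list they are given for up to 2 genes, those with the smallest p.

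Mice that share a number across the groups were treated as unpaired, since the labels state no pairing. The correlations of their deviations from the group means were -0.037, -0.045 and -0.045. Such values cannot show whether the mice were littermates or were processed together. No pair of libraries agreed within sampling noise, since the smallest chi-square per degree of freedom was 115. Exonic overlaps come from the deposited exon positions, shared 50-base stretches from GENCODE M21 transcripts (GRCm38), and promoter windows from RefSeq.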

Additional observations from a re-analysis of the deposited data

How the results depend on the processing

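The whole-table count of 23 calls (22 higher, 1 lower) was 68 (60 higher, 8 lower) with a filter of at least 5 CPM in 3 libraries, 755 (480 higher, 275 lower; 4.7%) with DESeq2, 1 with voom, and 0 to 5 with each library left out. Of the 40 kinetochore and checkpoint genes edgeR called 0 in each of its settings and voom 0 in its 1 setting, and DESeq2 called 1, Cenpi. Of the 59 further pathway genes DESeq2 called 4, Trip13 and Mad2l1bp higher and Ube2s and Plk1 lower. The 5 members at an unadjusted p under 0.05 (beside 11.1% of tested genes) became 9 (8 higher, 1 lower) with library size alone, against 11.2% of tested genes, 7 with DESeq2, against 14.3%, and 3 to 7 with each library left out, against 9.68% to 13.8%, being 3 without OcKO replicate 1, Control replicate 1 or Control replicate 2. The members' median of 0.02 was 0.19 with library size alone and -0.039 to 0.15 with each library left out. The count without overlap was 10 to 20 with each library left out, against 27.6% to 32.6% of tested genes. It was 8 with library size alone, against 19.8% of tested genes, and 9 with DESeq2-type size factors, against 19.3%. The replicate block, with mice of like number paired, gave 0 calls over the table and 4 members at an unadjusted p under 0.05, against 8.57% of tested genes. The Aurkc to Aurkb log2 difference was -0.61 to -0.06 and that of Sgo2a to Sgo1 -0.73 to -0.39 with each library left out. The log2 difference of the other cell types' markers was -0.0048 (without Control replicate 2) to 0.23 with each library left out, and 0.29 with library size alone.

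Over 26 named genes, 326 of 338 alternative values kept sign and side of the threshold. Aurkb ran from -0.33 to 0.36 and Sgo1 from -0.36 to 0.056 with a library left out, and with library size alone they were 0.023 and 0.020. The cause of these changes was not tested. Rpa1 lost its call in 4 settings (the replicate block and without OcKO replicate 3, Control replicate 2 or Control replicate 3), and DESeq2 added the 4 calls of Cenpi, Trip13, Mad2l1bp and Ube2s. The SE of Cenpb (1.40) and Nsl1 (0.98) was the limit for those genes: differences of that size could not be shown.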
